A study of Mus musculus and Homo sapiens with 22 samples.

Results

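PROX1 is a homeodomain transcription factor whose gene is active in hepatocytes, lymphatic endothelial cells and some neural cells, and in the liver it is known from early hepatoblasts through to the adult hepatocyte. Transcription factors that hold a cell type in place often occupy regulatory DNA around their own gene. CUT&RUN, in which an antibody tethers a nuclease to chromatin and the cut fragments are sequenced, places such occupancy on the genome. The regions described here are all CUT&RUN peaks whose summit, the position of strongest signal, lay in the PROX1 gene or within 250 kb of either of its ends. There were 66 of them among 105059 peaks in 3 lists: 47 of 50159 in liver, 7 of 40531 in MEFs and 12 of 14369 in Hep3B.

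The series held 22 samples. Liver came from wildtype C57BL/6J mice of 2 to 3 months, with an antibody against PROX1 itself (5 samples) or IgG (5 samples), so it reports the endogenous factor. MEFs, mouse embryonic fibroblasts taken from C57BL/6N embryos at E13.5, carried lentiviral rtTA and tetO-driven FLAG-tagged mouse Prox1, switched on with doxycycline (2 µg/ml) for 2 days, with FLAG antibody (3 samples) or IgG (3 samples). Hep3B, an established human hepatocellular carcinoma line, carried a doxycycline-inducible human PROX1 vector under puromycin selection and was induced at the same dose for 2 days, with FLAG antibody (3 samples) or IgG (3 samples). FLAG libraries report the introduced factor only, which an inducible vector drives and not the gene itself. The liver nuclei are labelled as hepatocyte and came from homogenized tissue, with no sort named, and Hep3B is a single tumour line.

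Each list is a consensus over the antibody samples of 1 group. The files give no depth for single samples and no replicate error, and no test between lists was run. Every peak has a summit −log10 p from the authors' caller, which ranks it only inside its own list, and the strongest peaks lie near percentile 100. Tissue, antibody, species and origin of the factor differ between lists and cannot be told apart. As a check on the labels, promoters of 6 of 6 hepatocyte marker genes held a summit in the liver list, 0 of 6 in MEFs and 1 of 6 in Hep3B. Over all protein-coding genes, the share with a promoter summit was 26.5% for liver peaks, 55.1% for MEF peaks and 43.6% for Hep3B peaks. For 6 fibroblast markers the counts were 1, 6 and 1, for 4 cholangiocyte markers 0, 2 and 3, and for 4 endothelial markers 0, 1 and 0. The cholangiocyte count in MEFs, 2 of 4, was close to the share of all genes and says little about the label. In Hep3B the hepatocyte count, 1 of 6, lay below the 43.6% of all genes, and the cholangiocyte count, 3 of 4, lay above it. For that list the check gives no support to the label. Occupancy is not expression, so these counts describe the lists and not the purity of the material.

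Mouse Prox1 (ENSMUSG00000010175.13) lies on the minus strand of chromosome 1 from 190118035 to 190170714 (mm10), and human PROX1 (ENSG00000117707.17) on the plus strand of chromosome 1 from 213983181 to 214041510 (hg38). Both have 5 exons in the main transcript (Prox1-202 and PROX1-201), and exons 2 to 5 hold the 2211 coding bases. Distances below run along transcription from the start of that transcript. Peaks are numbered in the same direction, L1 to L47 in liver, M1 to M7 in MEFs and H1 to H12 in Hep3B. An antisense RNA gene, Prox1os in mouse and PROX1-AS1 in human, starts inside the first part of the gene and runs away upstream. The next protein-coding gene downstream is Smyd2, a lysine methyltransferase gene, at 248.4 kb in mouse and 293.1 kb in human. Upstream, no protein-coding gene lies within 250 kb in either genome.

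The sequences at the summits that the layout turns on are given first, as 151 bases centred on the summit, plus strand, with capitals for any match to the 10 fixed motifs described further on. L42 was the second strongest liver peak of the locus and the one with the largest area, L18 the strongest inside the gene and L6 the strongest of the group at the start. They lie at chr1:190044242-190044392, chr1:190147838-190147988 and chr1:190180970-190181120 (mm10), respectively.
L42: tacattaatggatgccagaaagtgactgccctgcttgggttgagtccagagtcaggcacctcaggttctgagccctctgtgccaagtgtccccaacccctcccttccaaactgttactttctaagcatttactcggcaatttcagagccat
L18: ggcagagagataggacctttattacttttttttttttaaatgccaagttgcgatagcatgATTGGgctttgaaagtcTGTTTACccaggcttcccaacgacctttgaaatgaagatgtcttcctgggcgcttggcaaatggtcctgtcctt
L6: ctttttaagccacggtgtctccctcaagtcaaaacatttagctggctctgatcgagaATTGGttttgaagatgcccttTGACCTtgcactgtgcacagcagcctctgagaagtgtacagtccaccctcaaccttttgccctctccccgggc
L42 held no match. L18 held the FOXA word TGTTTAC and an NF-Y CCAAT box, and L6 the nuclear receptor word AGGTCA and a CCAAT box, each read on whichever strand carried it.

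At the Prox1 start, RefSeq (GRCm38.p6) lists 2 promoters, and both were matched to the genome. The 250 bases before each RefSeq start are shown on the minus strand, the strand of the gene. The first, chr1:190170828-190171077, had 236 bases under L14, and the second, chr1:190169516-190169765, lay wholly (250 bases) under L15.
Prox1 upstream promoter: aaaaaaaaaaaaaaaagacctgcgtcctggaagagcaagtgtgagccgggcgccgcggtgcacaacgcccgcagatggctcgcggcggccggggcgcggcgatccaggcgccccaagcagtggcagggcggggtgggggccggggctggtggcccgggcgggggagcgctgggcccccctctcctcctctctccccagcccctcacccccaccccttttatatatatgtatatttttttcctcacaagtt
Prox1 inner promoter: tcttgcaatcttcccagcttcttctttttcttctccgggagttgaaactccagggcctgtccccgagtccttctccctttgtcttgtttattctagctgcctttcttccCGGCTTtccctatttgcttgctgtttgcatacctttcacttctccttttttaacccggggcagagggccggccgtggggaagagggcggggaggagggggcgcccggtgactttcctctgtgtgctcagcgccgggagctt
The upstream promoter (64.8% G and C) held none of the motifs, and the inner one (56%) held the PROX1 core word AAGNCG once, read on the opposite strand.

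For the promoter of the neighbour Smyd2, where liver and MEF peaks met, the summit sequences of L46 (chr1:189922962-189923112) and M3 (chr1:189921826-189921976) are shown on the plus strand of mm10. For Hep3B, H4 (chr1:213987071-213987221) and H7 (chr1:214123229-214123379) are shown on the plus strand of hg38, as the peak of largest area at the PROX1 start and as a distal peak whose aligned mouse sequence lay under a liver peak.
L46: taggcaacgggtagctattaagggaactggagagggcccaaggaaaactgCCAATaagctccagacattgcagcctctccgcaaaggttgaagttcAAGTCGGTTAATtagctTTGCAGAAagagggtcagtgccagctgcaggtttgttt
M3: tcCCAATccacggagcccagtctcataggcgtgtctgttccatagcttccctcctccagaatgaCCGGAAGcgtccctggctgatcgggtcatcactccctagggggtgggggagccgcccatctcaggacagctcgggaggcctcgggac
H4: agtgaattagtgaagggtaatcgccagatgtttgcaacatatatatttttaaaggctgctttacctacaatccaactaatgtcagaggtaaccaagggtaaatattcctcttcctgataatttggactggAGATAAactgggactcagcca
H7: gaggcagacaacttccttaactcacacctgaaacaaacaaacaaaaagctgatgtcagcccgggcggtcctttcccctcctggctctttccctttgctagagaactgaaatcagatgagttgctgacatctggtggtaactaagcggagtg
L46 and M3 overlapped, but their summits held different words apart from CCAAT. L46 had AAGNCG, the HNF1 word GTTAAT and the C/EBP word TTGCNNAA, and M3 had the ETS word CCGGAAG. H4 had the GATA word AGATAA and H7 had none.

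In liver, PROX1 occupancy was spread over the gene, its first 38.9 kb of upstream DNA and its downstream flank. Of the 47 peaks, 14 lay upstream, 16 in the gene and 17 downstream. No liver summit lay farther upstream than L1 at 38.9 kb, and the next one outside the window was 626.1 kb from the gene (−log10 p 12.6, percentile 54.6). Downstream, the last peak inside the window, L47, lay 201.1 kb beyond the gene end (11.1, percentile 38.1), and the first outside at 451.9 kb (9.33, percentile 14.6). The limit of the window therefore cut through no group of liver peaks. Together the peaks covered 50725 bp, or 9.18% of the 552.7 kb window.

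**Figure D1:**
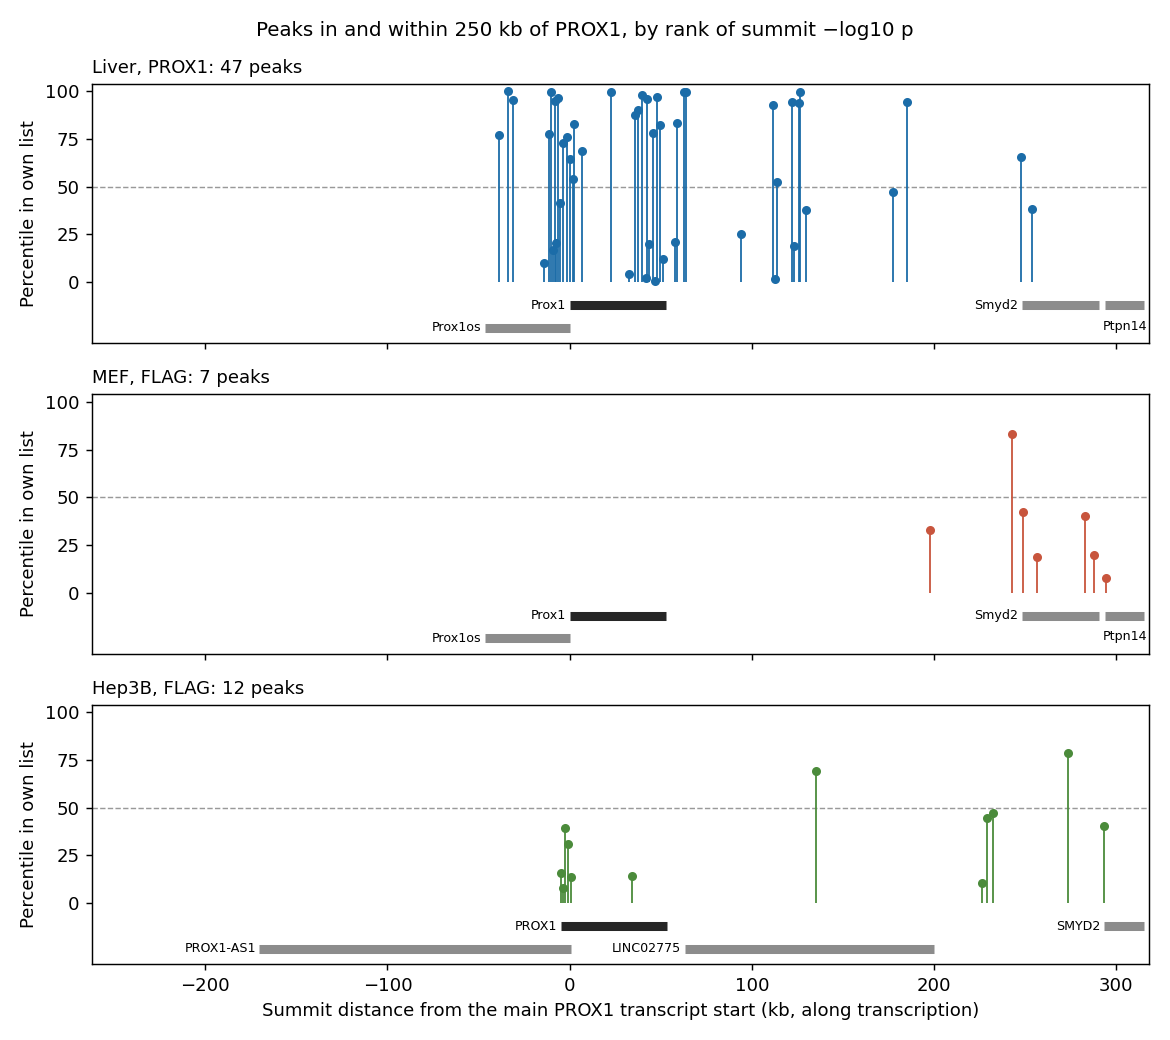
Percentile of the summit −log10 p of each locus peak within its own list (y axis) against summit distance from the main PROX1 transcript start along transcription (x axis, kb) for the 3 lists, with a dashed line at the list median and bars for annotated genes. Liver peaks ran from 38.9 kb upstream to 253.8 kb downstream, the 7 MEF peaks all lay 197.5 kb or farther downstream, and 5 of 12 Hep3B peaks sat at the start.

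The number of liver peaks was high for a gene. Over 21938 mouse protein-coding genes the median window held 15 summits, and 6.19% held at least the 47 of Prox1. With 100 kb on each side, where Prox1 had 43 summits, that share was 0.547%, and with 500 kb it was 27.7%, since only 1 more summit joined. A liver summit somewhere in the window was common, at 87.4% of genes. Close to the start the difference from other genes was larger. Prox1 had 11 summits within 10 kb of its outermost start, a number reached by 0.15% of genes. The peaks covered 37.4% of the gene, against a median of 0.287% over 10159 genes of at least 20 kb, of which 0.305% were covered to the same extent or more.

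**Figure D2:**
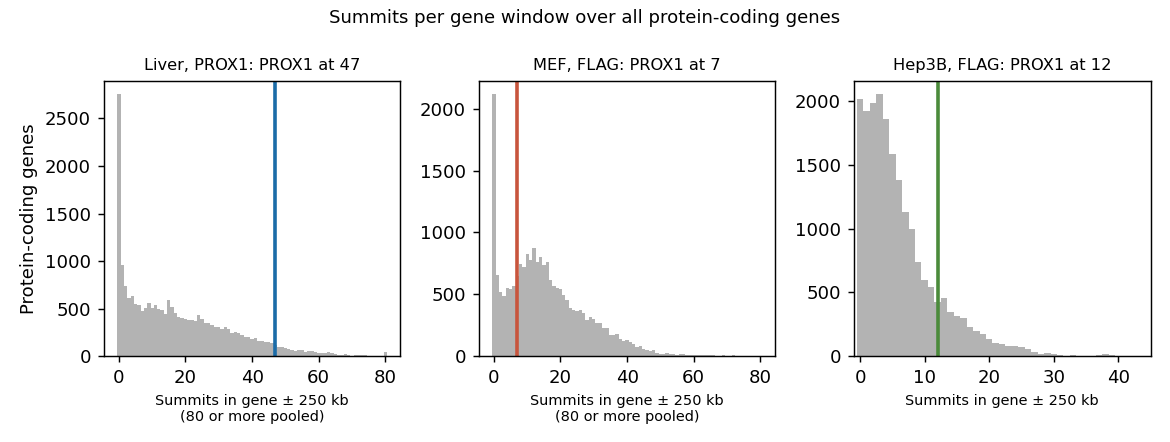
Number of protein-coding genes (y axis) by number of summits in the gene and 250 kb on each side (x axis) for each list, with PROX1 marked by a line. PROX1 lay to the right in liver (47, reached by 6.19% of genes), left of the centre in MEFs (7) and to the right in Hep3B (12).

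The liver peaks stood in rows with little space between them. Joining peaks at most 1 kb apart gave 18 blocks, and 30 of the 47 peaks lay in blocks of 3 or more, against 19.5% of all liver peaks. The block at the start, L5 to L16, held 12 peaks in 15.9 kb, of which 13.7 kb were under peaks. No block in the liver list held more peaks, and 3 blocks, this one included, held 12. It ran from 11.4 kb upstream, through the start, into intron 1. A further block, L20 to L29, held 10 peaks in 14.4 kb over the end of intron 4 and the 3′ UTR in exon 5, a size reached by 20 blocks of the list. L39 to L43, between 122.0 and 129.9 kb from the start and with no annotated gene at any summit, formed a block of 5 peaks in 8.6 kb, a size reached by 455 blocks.

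Inside the gene the liver summits lay in introns and in the 3′ UTR. Intron 4 held 9 peaks, intron 1 held 3, intron 3 held 1 (L18) and the 3′ UTR held 3. Intron 2 held none. These counts are not scaled by length, and intron 4 is the longest intron. No liver peak covered any of the 2211 coding bases, and the same was true of the MEF and Hep3B lists. Since the introduced genes carry the coding bases, this count also shows that no peak of either FLAG list lay on them.

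**Figure D3:**
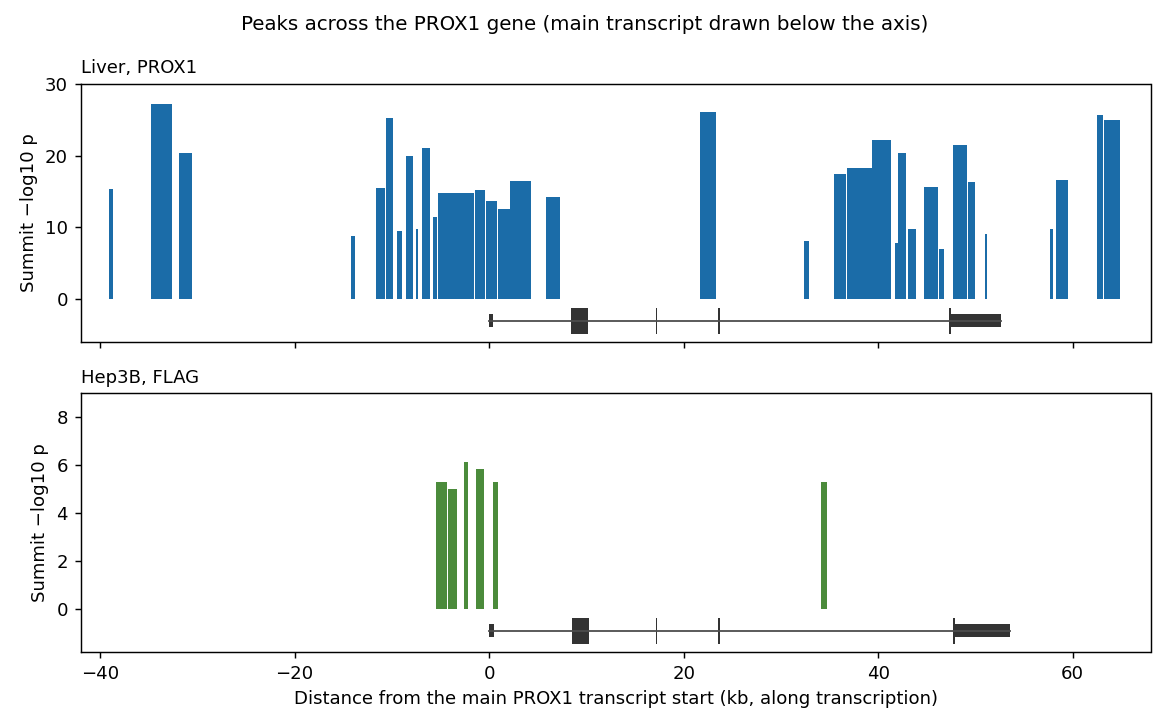
Peaks across PROX1 in the liver and Hep3B lists, each bar spanning 1 peak with its summit −log10 p as height (scales differ between lists), against distance from the main transcript start (kb), with the main transcript drawn below. Liver peaks formed 1 group around the start and 1 over intron 4 and the last exon, and none reached the coding bases.

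The strength of the liver peaks covered the whole range of the list, with many near its top. Summit −log10 p ran from 7.04 to 27.1 with a median of 15.4, against 12.2 for the whole list, whose strongest peak reached 61.7. The median percentile was 77.3, and percentiles ran from 0.388 (L27) to 99.9 (L2). Above percentile 75 lay 25 of the 47 peaks, where 25% of the list falls by construction. Above percentile 90 lay 17 peaks and above percentile 95 lay 12, while 11 lay at percentile 25 or lower. Locus peaks were also wide, with a median of 864 bp against 504 bp in the list, and the median area was 3726.9 against 1464.0.

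**Figure D4:**
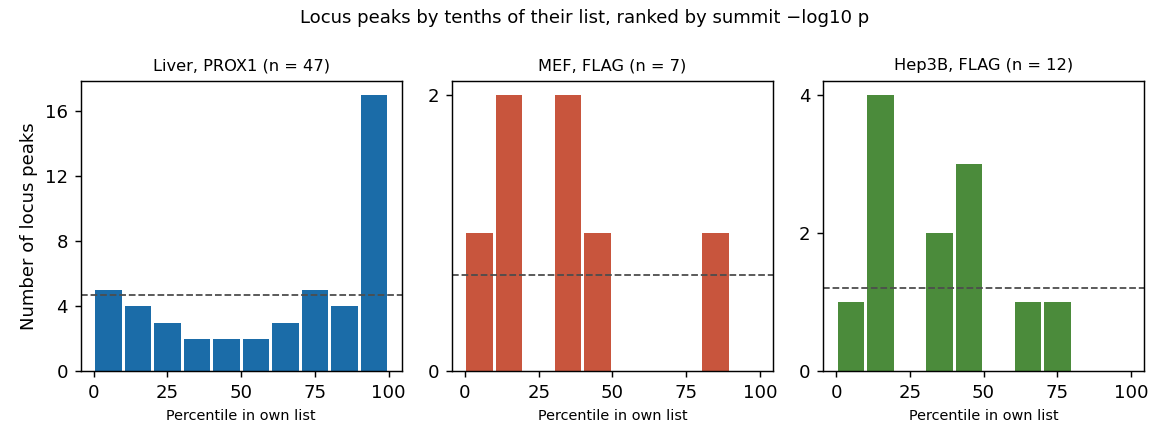
Number of locus peaks (y axis) in bins of 10 percentiles of their own list ranked by summit −log10 p (x axis), with a dashed line at the number that an even spread over the bins would give. In liver, 17 of 47 peaks fell above percentile 90, while no MEF or Hep3B peak did.

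The strongest liver peaks lay away from the promoter. L2, 34.0 kb upstream within Prox1os, had −log10 p 27.1 and rank 64 of the list. L42, 126.4 kb downstream, had 26.6 (rank 90), was 3522 bp wide and had an area of 29958.9, the largest of the locus. L18, in intron 3 and 22.8 kb from the start, had 26.1 (rank 117). L33 and L34, a pair 62.9 and 63.9 kb from the start and so about 10 kb beyond the gene, had 25.7 (rank 153) and 25 (rank 236). L6, 10.3 kb upstream, had 25.2 (rank 217). These 6 peaks therefore stood in 5 separate places: far upstream, near upstream, inside the gene, just beyond it and far downstream.

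By summit −log10 p the promoter itself carried peaks of middle rank, while by area they ranked higher. L14 had its summit 6 bp upstream of the main start, with −log10 p 13.7 (percentile 64.7) and an area of 4879.0 (percentile 87.7 by area). L15 lay in intron 1, 348 bp from the start of Prox1-201, with 12.6 (percentile 54, and 84.2 by area). These 2 were the only liver summits within 1000 bp of a Prox1 start, where 26.5% of genes had at least 1. Within the block at the start, −log10 p ran from 9.49 to 25.2 with a median of 15, and 6 of 12 peaks lay above percentile 75 of the list. L6, L8 (20) and L10 (21) upstream exceeded the promoter peaks in −log10 p, and weaker ones stood between them, such as L7 (9.49) and L9 (9.82). The block over intron 4 and the last exon ran from 7.04 to 22.1 with a median of 16.9, and 7 of its 10 peaks lay above percentile 75. Its strongest were L22 (22.1) in intron 4 and L28 (21.4) in the 3′ UTR.

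In MEFs no peak lay at Prox1. The 7 MEF peaks all lay downstream, and the nearest to the start, M1, was 197501 bp away. M1 lay 50850 bp from the nearest Smyd2 start, and the others stood around Smyd2 and the end of Ptpn14, a tyrosine phosphatase gene. As many summits were common around a gene in this list, at 75.2% of genes, and 90.4% had at least 1. A promoter summit was found at 55.1% of genes in MEFs, and not at Prox1. The strongest, M2, lay 5515 bp from the nearest Smyd2 start with −log10 p 7.56 (percentile 83.3), the only one above percentile 75 (25% of the list). M3, 352 bp from a Smyd2 start, had 5.69 (percentile 42.4), and M1 had 5.36, M4 had 4.84, M5 had 5.6, M6 had 4.89 and M7 had 4.4. The median percentile was 32.9. None lay in a block of 3 or more, where 5.03% of the MEF list did. M7, 241.8 kb beyond the gene end, was the last inside the window, and the first outside (5.28, percentile 31.2) lay at 344.4 kb.

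Liver and MEF lists could be compared by position. Of the 47 liver peaks 1 overlapped a MEF peak, against 18.9% of all liver peaks, and of the 7 MEF peaks 1 overlapped a liver peak, against 21.4% of all MEF peaks. The overlap was L46 with M3 at the Smyd2 promoter, where L46 had −log10 p 13.8 (percentile 65.5). Their summits were too far apart to count as shared when 100 bp was the limit, and the overlap was lower than 50% of the shorter peak. The gene start thus carried 12 joined peaks in liver and 0 in MEFs, while the neighbouring promoter carried a peak in both.

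In Hep3B the peaks at PROX1 gathered at the start. H1 to H5 formed 1 block of 5 peaks in 6.4 kb, and only 5 blocks of the Hep3B list held 5 or more. Of the 12 locus peaks, 5 lay in blocks of 3 or more, against 2.75% of the list. H1 had its summit 25 bp before the start of PROX1-203, the transcript that begins farthest upstream, with −log10 p 5.32. H2 had 5.03, H3 had 6.13 and H4 had 5.85, all between that start and the main start. H5 lay 528 bp past the main start and 16 bp from the start of PROX1-202, with 5.29. For H3, H4 and H5 a start of the antisense gene PROX1-AS1 lay nearer than any PROX1 start, at 785, 363 and 7 bp. Which of the 2 genes these peaks belong to was not tested. H1, H4 (808 bp) and H5 were the 3 summits within 1000 bp of a PROX1 start, where 43.6% of genes had at least 1. Within 10 kb of the outermost start lay 5 summits, a number reached by 0.21% of 20033 genes.

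By rank of summit −log10 p these 5 were weak, while by area their percentiles ran from 21.6 (H5) to 68 (H4). By −log10 p none lay above percentile 75 of the Hep3B list, and percentiles ran from 7.92 (H2) to 39.5 (H3). H6, the only peak deeper in the gene, lay in intron 4 at 34.5 kb with 5.29 (percentile 14.2). The peaks covered 6.38% of the gene, against a median of 0.177% over 11651 genes of at least 20 kb, of which 0.755% reached that share.

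The other 6 Hep3B peaks lay downstream and ranked higher as a group, with a median percentile of 45.7. H7, inside the long non-coding RNA gene LINC02775 at 135.3 kb, had −log10 p 7.12 (percentile 69.1). H8, H9 and H10 stood at 226.1, 229.0 and 232.3 kb with 5.15, 6.26 and 6.35. H11 at 273.7 kb was the strongest of the locus with 7.6 (rank 3040, percentile 78.8) and the only one above percentile 75 (25% of the list). H12 lay 8 bp from the SMYD2 start with 6.15 (percentile 40.5). Over all 12, the median percentile was 35.1. The 12 summits exceeded the median of 5 per gene window, and 16.2% of genes held as many, while 89.9% held at least 1. The last peak inside the window, H12, lay 239.6 kb beyond the gene end, and the first outside (7.8, percentile 82.1) at 275.1 kb.

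All 3 lists shared 2 features. No summit lay in the far upstream part, since the first upstream of the window was 626.1 kb from the gene in liver, 626.7 kb in MEFs and 608.6 kb in Hep3B. And each list had a peak at the promoter of Smyd2 or SMYD2 (L46, M3 and H12). At the PROX1 start, in contrast, peaks stood in the liver and Hep3B lists and not in the MEF list.

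To place mouse and human peaks side by side, the peak sequences were aligned to the locus window of the other species (blastn, E value at most 1e-5). Of the 47 liver peaks 31 aligned, over 164 to 1311 bp at 67.7 to 94.4% identity. All 31 kept the orientation and the order they had along the mouse gene, and 25 alignments held the summit. L6 aligned at -9.4 kb, L18 at 22.3 kb (86.3% identity over 1311 bp), L34 at 63.6 kb and L42 at 137.0 kb of the human start. L33, the partner of L34, did not align.

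Few of these human places held a Hep3B peak. Only 2 of the 31 did, L12 in H2 and L13 in H4, both at the start. Each peak was placed by its highest-scoring alignment alone, so other parts of a wide peak were not counted. L12, for example, was 3644 bp wide and was placed by 272 bp. The count of 2 is thus a lower bound. Hep3B peaks covered 1.44% of the human window, while liver peaks covered 9.18% and MEF peaks 1.04% of the mouse window. Counts in the 2 directions are therefore not on the same scale. The aligned part of L14 ended 146 bp from H4, and that of L15 105 bp from H5. The human place of L42 was 956 bp from H7 and that of L41 798 bp, and in the other direction H7 aligned to sequence under L41. Read from Hep3B, 9 of 12 peaks aligned to the mouse window, and 8 of them fell on a liver or MEF peak: H1, H2 and H3 on L12, H4 on L13, H5 on L14, H7 on L41, H8 on M1 and H12 on both L46 and M3. All 5 Hep3B peaks at the start thus had their mouse counterpart inside the liver block L5 to L16. That block runs across the start with 13.7 of its 15.9 kb under peaks. Most sequence that aligns near the start would fall on it, so this count says little about agreement between the lists. The strong liver places L18 and L34 had an aligned human sequence and no Hep3B peak within 10 kb.

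**Figure D5:**
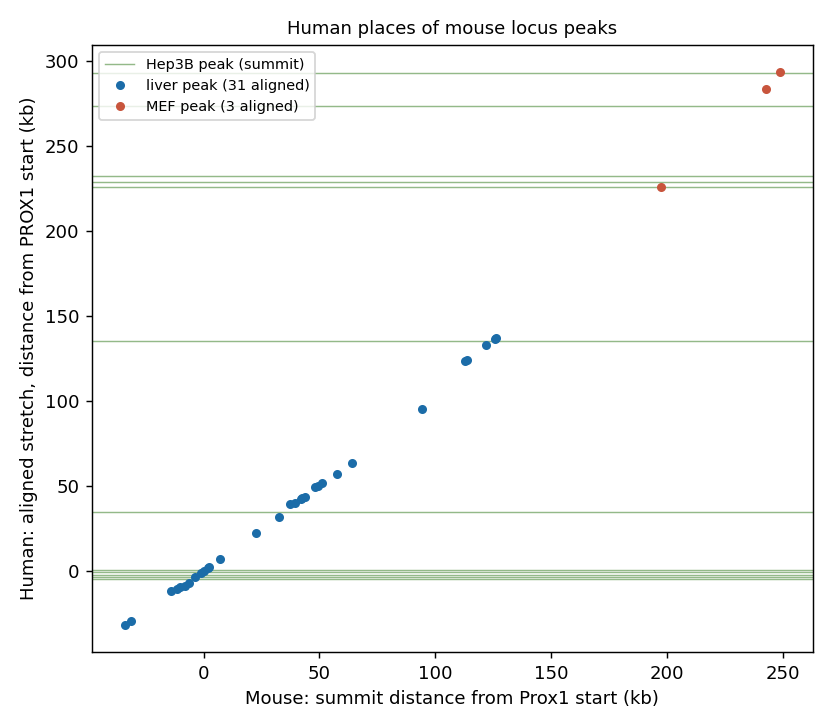
Distance of the aligned human stretch from the PROX1 start (y axis, kb) against distance of the mouse summit from the Prox1 start (x axis, kb) for the 31 liver and 3 MEF peaks that aligned, with a horizontal line at each Hep3B summit. The points kept their order, and liver points met Hep3B lines at the start and came close at 137.0 kb.

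Words bound by PROX1 and by other liver factors stood at a part of the liver summits, in shares that are set beside those of the whole list. The 10 words were searched on both strands within 75 bp of the summit. The PROX1 core word AAGNCG stood at 3 of 47 liver peaks (L22, L23 and L46), or 6.38%, against 9.31% of the list, and the full palindromic PROX1 site at 0 (0.106% of the list). AGGTCA, the word bound by nuclear receptors such as HNF4A and NR5A2, stood at 8 (17% against 21.8%), and CAAAGGTCA, an HNF4-type extension that contains it, at 1, L3 (2.13% against 1.72%). TTGCNNAA stood at 9 (19.1% against 13.2%) and CCAAT at 9 (19.1% against 20.7%). AGATAA stood at 5 (10.6% against 9.39%), GTTAAT at 3 (6.38% against 6.66%), TGTTTAC at 2 (4.26% against 5.12%) and CCGGAAG at 0 (1.38%).

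At the other peaks the counts were small. In MEFs, 2 of 7 peaks (M1 and M3) held CCGGAAG, against 3.69% of the list, and the nuclear receptor, FOXA and NF-Y words stood at 1 peak each (8.69%, 1.86% and 22.9% of the list). The other 6 words stood at 0. In Hep3B, AGATAA stood at 2 of 12 (H4 and H8), against 4.09%, and AAGNCG at 1, H1, against 19.4%. The FOXA, C/EBP, NF-Y and ETS words stood at 1 each (3.17%, 5.92%, 23.8% and 7.79% of the list), and the remaining words at 0. A word that is absent here is absent only from this window. Median GC content within 75 bp of the summit was 49% at liver locus peaks (list 47.7%), 55.6% in MEFs (53%) and 50% in Hep3B, below the 62.3% of that list. H12 at the SMYD2 start had 86.8%, the highest of the locus.

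Genes whose products are known to work with PROX1 were looked at in the same way, to set the gene beside its partners. They are nuclear receptors (NR2F1, NR2F2, HNF4A, NR5A2, ESRRA and RORA), the coactivator PPARGC1A, histone deacetylases and members of the NuRD and LSD1 corepressor complexes, SOX18, which acts upstream of PROX1 in lymphatic endothelium, and the relative PROX2. In liver 6 of 17 had a promoter summit, against 26.5% of genes. They were 5 nuclear receptors (Nr2f2, Hnf4a, Nr5a2, Esrra and Rora) and Ppargc1a, and none of the corepressor genes Hdac1, Hdac2, Hdac3, Kdm1a, Chd4, Mta1, Mta2 and Rbbp4 was among them. Hnf4a, Nr5a2 and Rora had 55, 64 and 69 liver summits in their windows, more than Prox1. A window grows with the length of its gene, and these counts are not scaled for it. In MEFs 13 of 17 had a promoter summit, against 55.1%. All 8 corepressor genes did, and so did Nr2f1, Nr2f2, Esrra, Rora and Ppargc1a. In Hep3B 12 of 17 did, against 43.6%, among them all corepressor genes but Chd4 and Mta1. The classes are small, and a difference between them was not tested. Like the 6 genes named for liver, Prox1 had a liver promoter summit. Like Hnf4a, Nr5a2, Sox18 and Prox2 it had none in MEFs.

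Likeness to other genes was measured as the largest difference between percentiles of the summit count over the 3 lists, across 15713 genes with the same symbol in both species. Prox1 stood at 93.1 in liver, 14.8 in MEFs and 84.5 in Hep3B on that scale. The 3 genes closest to it were Ccdc152 (44, 6 and 13 summits, largest difference 2.75), Onecut1 (57, 6 and 11 summits, 4.16) and Foxa2 (42, 6 and 14 summits, 4.27).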

How the data were processed

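CUT&RUN was measured in 22 samples, grouped by their labels. The authors trimmed paired reads with Trim Galore (0.6.6), aligned them with Bowtie2 (2.4.2) to mm10 or hg38 and called consensus peaks over the antibody samples of a group with Genrich (0.6.1) at a lenient q limit, with PCR duplicates removed. The authors describe the sites as found against IgG, but their calling command names no control, so whether and how IgG entered the lists is not given in the sources used here. Each of the 3 deposited lists holds a score, capped by the authors' caller and not used. The deposited signal sums the caller's significance over a peak (its area), with a lowest value of 500.0 in liver and 200.0 in the others. The deposited −log10 p and −log10 q belong to the summit, and the lowest −log10 q was 4.03, 1.16 and 1.22 in liver, MEFs and Hep3B. Nothing was normalized between lists.

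All peaks ended within the chromosomes of the matching genome. Members were found by summit in the gene plus 250 kb, with GENCODE M21 and 44. Percentiles count peaks below plus those tied at equal weight. Windows, ranks and overlaps (1 bp) were computed in Python 3.11.15 and tested on simulated data, and alignments were made with BLAST 2.17.0 on repeat-masked mouse queries. Counts are set against whole lists or all protein-coding genes, with no test. Genes named were those of the window, the partner list and the 3 most alike. Members and lists were chosen with earlier results of these data known. Blocks (gap of 1 kb), counts within 10 kb of the start, the share of the gene covered and the E-value alternative were chosen after values were seen. Printed sequences were chosen for rank and position. A gene of the partner list and a sequence are not reported here.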

Additional observations from a re-analysis of the deposited data

How the results depend on the processing

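No paired analysis was possible because each deposited list pools the samples of 1 group, and for the same reason no replicate could be left out and no depth is known. Of 89 alternatives, 60 counted as unchanged, a count when it stayed within 1.5 times and a share or percentile when it stayed within its 95% binomial interval, which covers counting error only and is narrow over lists of this size. With an area of at least 500, the floor of the liver list, 2 MEF and 3 Hep3B peaks were left, and the share of genes with as many summits became 80% and 41.8%. With 100 kb on each side, 0 MEF and 7 Hep3B peaks were left, the shares were 0.547% (liver), 100% (MEFs, by construction) and 13.1% (Hep3B), and the Hep3B median percentile was 15.6, because the stronger Hep3B peaks lay farther downstream. With 500 kb the MEF count was 15 and the shares 27.7%, 72.3% and 24.7%. Ranked by area, the median percentiles were 81.7, 42.6 and 39.6, the highest 99.9, 87 and 72.8 in liver, MEFs and Hep3B, and 0 Hep3B peaks lay above percentile 75. A promoter window of 2000 bp took in 4 liver summits. The overlap of L46 with M3 gave 0 shared peaks when at least 50% of the shorter peak or summits within 100 bp were required. Within 100 bp of the summit, AAGNCG stood at 5 liver peaks and CAAAGGTCA at 2, and in Hep3B AGGTCA and GTTAAT stood at 1 each and CCAAT at 3. For 2 words in Hep3B the side relative to the list changed, with GTTAAT at 8.33% against 4.23% and CCGGAAG at 8.33% against 9.66%, each resting on 1 peak. An E value of at most 1e-10, chosen after seeing the data, left 31 liver, 3 MEF and 8 Hep3B alignments.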
